A study of Solanum lycopersicum and Solanum pimpinellifolium with 30 samples.

Results

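Landrace 571 is a local Andean variety of the cultivated tomato, Solanum lycopersicum, held as a numbered accession. Its ripe red fruit was profiled on 3 arrays, which were set against the equally weighted mean of 8 other landraces with 3 arrays each. These are 549, 557, 560, 572, 3806, 3815, 3836 and 3842, so that 27 of the 30 arrays of the series enter the main tests. The 10038 members are all probe sets of the array other than the 171 controls, of 10209 in all. The remaining 3 arrays are of LA1589, an accession of the wild relative Solanum pimpinellifolium. They were kept out of the main tests and are given as levels, but entered the scaling of the 30 arrays and 1 alternative fit. No plant was treated: all accessions grew in the same field trial with replicated plots, and fruit was picked at the mature red stage. The pericarp was freed of epicarp, locule tissue and seeds, and biotin-labelled cRNA of its total RNA was read on a 1-colour Affymetrix tomato array. Each landrace is represented by 1 accession. The labels call its replicates biological but do not say which plants or plots each came from, so the p-values measure the spread between these arrays.

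Tomato is a climacteric fruit, in which a burst of ethylene drives ripening. In the red pericarp, chlorophyll is lost, lycopene accumulates, cell walls are loosened and volatile esters and aldehydes form. Ripening fruit also makes defence proteins, among them osmotin-like proteins, chitinases and proteinase inhibitors, and several of these genes respond to ethylene.

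The 3 arrays of 571 resembled each other closely. Each correlated at 0.983 to 0.984 with its fellow arrays, against 0.917 to 0.990 in the other 8 landraces. For 1 of the 3, replicate 2, the most similar array was one of 3842 and not one of 571. On average 71.7% of the probe sets of 571 exceeded array background, set by probe sets for reporter genes that tomato lacks, against landrace means of 48.5% in 557 to 72.0% in 3806. The mean of the spiked bacterial controls, as deposited, was 7.18 ± 0.24 in 571 (log2, SD, n = 3 arrays), the lowest of the 9 landraces. The other landraces ran between 7.40 in 3842 and 9.77 in 557. Markers of seed and epidermis were dim. The seed genes TAS14 and MAN2 averaged 0.83 and 0.16 in 571 and 0.50 and 0.21 in the others (log2 signal). The epidermal lipid transfer protein genes LE16, ltpg1 and TSW12 averaged 0.36, 0.48 and 0.22 in 571 and 0.50, 0.46 and 0.32 in the others. The summed log2 level of the 12 photosynthesis genes was 51.5 in 571, within the 36.8 to 59.3 of the other landraces. Not all of these genes, which green and locule tissue can express, were dim. In 571 PSBR averaged 9.19, PSBO 6.11 and CAB4 2.48. Genes of ripe fruit were high: polygalacturonase PG2, which degrades pectin, averaged 9.38 in 571 and 9.43 in the others, and phytoene synthase Psy1 averaged 9.55 in 571 and 8.71 in the others, whose lowest mean was 5.36 in 560.

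The first comparison asks which transcripts set 571 apart from the average of the other landraces. In 571 the proteinase inhibitor gene ER1, the osmotin-like gene NP24-I, the farnesyl diphosphate synthase gene FPPS1, the annexin gene AN35 and the transcription factor gene JERF1 were higher. The catalase gene CAT2 and the gibberellin repressor gene GAI were lower. Taken landrace by landrace, however, AN35 passed against 572 only. The alcohol acyltransferase gene AAT also passed as higher, but its level in 571 lay below that of 7 of the 8 other landraces. These 8 genes are all that passed among the 661 genes with a described symbol, 6 higher and 2 lower. Over all probe sets 75 passed limma's moderated test (0.747% of those tested, Benjamini-Hochberg adjusted p under 0.05), with 41 higher (0.408%) and 34 lower (0.339%) in 571. Of these 75, 19 were higher and 18 were lower by 2-fold or more. At an unadjusted p under 0.05 the count was 1109 of 10038. The platform annotation named 11 of the 75 and left 64 without a name.

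The count rests on few arrays. Without replicate 1, 2 or 3 of 571 it was 19, 21 or 30. It was 44 without replicate 2 or without replicate 3 of 3842, 113 and 114 without replicates 1 and 2 of 557, and 115 without replicate 1 of 3815. With the spiked controls as a covariate 5 probe sets passed, and none of the 8 genes was among them, though all 8 kept the sign of their difference. These controls varied more between landraces (means between 7.18 and 9.77) than within them (SD 0.20 to 0.58). The covariate thus overlaps with landrace, and a call lost in this fit does not show that the difference was absent. A limma fit of 1 mean per landrace takes the spread between landraces as the error. In it 0 probe sets passed at the adjusted threshold and 94 of 10038 at an unadjusted p under 0.05. The 94 are a smaller share than the 0.05 that this threshold alone would let through.

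A difference from a mean of 8 can come from a few of them. Of the 75 probe sets, 571 had the highest mean of the 9 landraces in 28 and the lowest in 25. The other 13 higher and 9 lower ones had at least 1 landrace beyond 571. A test of 571 against each of the 8, in which the highest of the 8 limma p-values is adjusted, called 0 probe sets. At an unadjusted highest p under 0.05 it gave 10, with 6 higher and 4 lower. In 15 probe sets (0.149%) the 3 arrays of 571 lay wholly outside the 24 other arrays, 9 above (0.0897%) and 6 below (0.0598%). Of these 15, 9 were among the 75 called, and JERF1 was the 1 named gene.

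**Figure D1:**
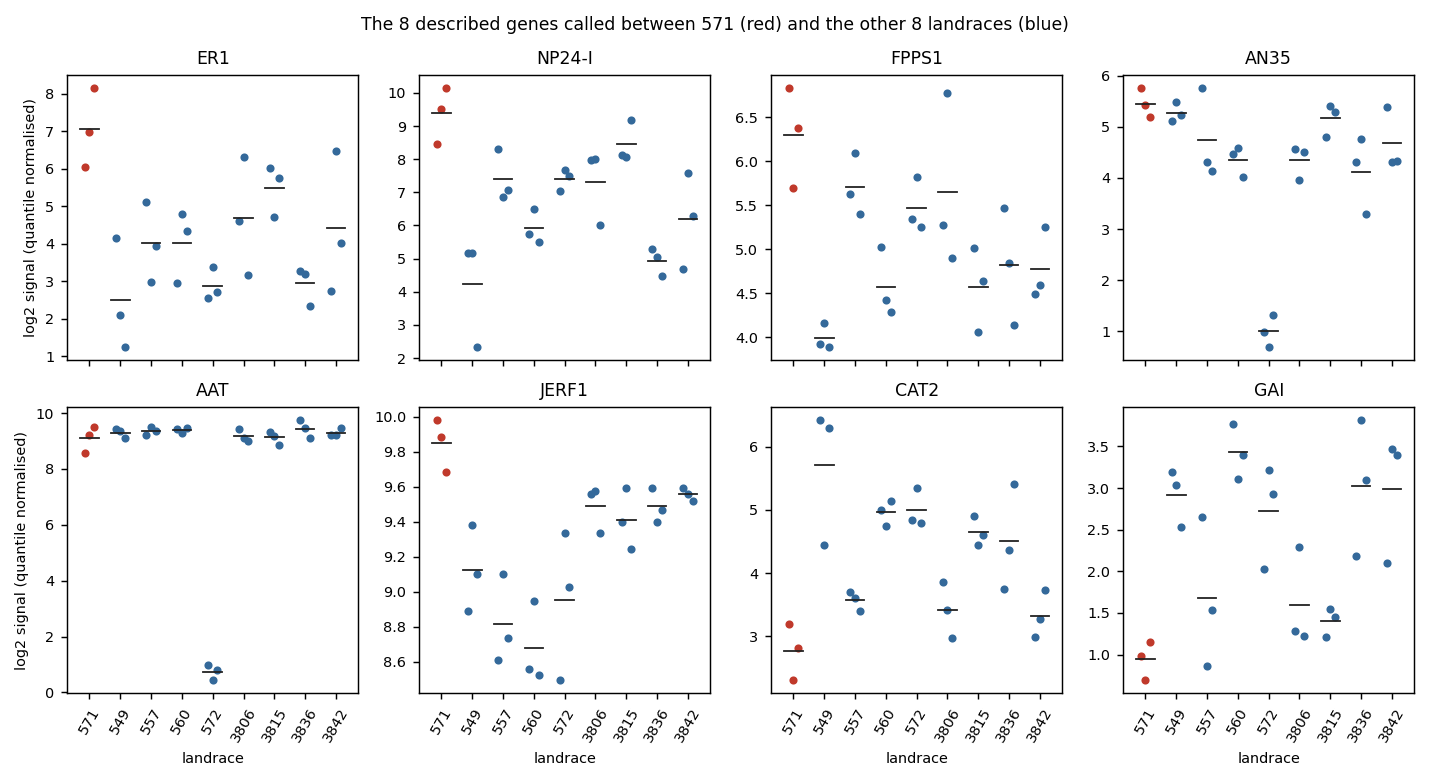
Log2 signal after quantile normalisation (vertical axis) of the 8 described genes that passed between 571 and the other 8 landraces, with 1 point per array, 571 in red at the left, the others in blue, and a bar at each landrace mean. All 3 arrays of 571 lie above all 24 others for JERF1 alone, and AAT is near 9 in every landrace but 572.

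ER1 encodes a proteinase inhibitor and was isolated as an ethylene-responsive transcript. Its log2 signal was 6.05, 6.98 and 8.17 in the arrays of 571. In the 24 other arrays the lowest was 1.24, the median 3.66 and the highest 6.47. The lowest array of 571 was exceeded by 2 other arrays, so that the groups overlapped there only. ER1 was higher in 571 by 3.20 ± 0.66 (log2 difference, SE, limma with 3 against 24 arrays, adjusted p = 0.0227), which is 9.19-fold, and 571 had the highest of the 9 means. The nearest landrace was 3815 with a mean of 5.49. Taken landrace by landrace, with p adjusted over the probe sets of each pair, ER1 passed against 5 of the 8. Without replicate 1, 2 or 3 of 571 its adjusted p was 0.0582, 0.116 or 0.179, and without landrace 572 it was 0.0626.

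NP24-I encodes an osmotin-like protein of the pathogenesis-related family PR-5. It had 8.46, 9.52 and 10.16 in 571, against a lowest of 2.33, a median of 6.68 and a highest of 9.17 in the other arrays. Only 1 of the 24 other arrays, of 3815, was above the lowest array of 571. The difference was 2.90 ± 0.54 (adjusted p = 0.0118), or 7.46-fold. The means of the others ran between 4.22 in 549 and 8.46 in 3815, and NP24-I passed in 3 of the 8 pairs. Without replicate 2 or 3 of 571 the adjusted p was 0.0901 or 0.112. The wild LA1589 had 10.51 ± 0.33 for NP24-I (SD, n = 3 arrays) and 7.58 for ER1 (arrays between 6.25 and 8.56), and thus like 571 lay above the mean of every other landrace.

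ER1 and NP24-I are neighbours in the reference assembly SLM_r2.1. ER1 lies on chromosome 8 between 66039834 and 66040926 and NP24-I between 66041684 and 66042671, with 757 bases and no annotated gene start between them. Both were highest in replicate 3 of 571 and lowest in replicate 1. Landrace 3815 was second to 571 in both and 549 was lowest in both. Between these ends the order of the landraces differed. For example, 572 averaged 2.88 for ER1, near the 2.49 of 549, but 7.39 for NP24-I, against 4.22 in 549.

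The other defence genes gave no call. The list of defence and wound genes had 48 members, of which NP24-I rose, 0 fell and 47 failed the test. The list median was 0.04, against -0.02 over all probe sets. The basic chitinase gene CHI9 had 3.31, 3.88 and 6.60 in 571 and between 0.18 and 5.67 in the other arrays, with a difference of 2.48 (95% interval 0.64 to 4.32, adjusted p = 0.224). The glucanase gene GluB had 1.15, 1.72 and 3.66 in 571 and a median of 0.59 in the others, with a difference of 1.26 (0.17 to 2.35, adjusted p = 0.333). For both genes 571 had the highest of the 9 means and replicate 3 was the highest of its arrays. CHI9 and GluB were chosen after their values were seen. LAPA2, a wound-inducible leucine aminopeptidase gene, and MYC2, of jasmonate signalling, had the highest levels in the list after those that passed. They differed by -0.13 (95% interval -0.49 to 0.23) and 0.10 (-0.43 to 0.63).

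FPPS1 encodes farnesyl diphosphate synthase, which makes the precursor of sterols and sesquiterpenes. Its signal was 6.84, 5.69 and 6.38 in 571, against a lowest of 3.89, a median of 4.95 and a highest of 6.77 in the others. In the other landraces, 3 arrays exceeded the lowest of 571, so the groups overlapped. The difference was 1.36 ± 0.31 (adjusted p = 0.038), which is 2.57-fold, and FPPS1 passed in 4 of the 8 pairs. It lies on chromosome 12 (6382102 to 6386316). The call was lost without any single array of 571 (adjusted p = 0.358, 0.0572 and 0.162), without replicate 1 of 549 (0.055), replicate 3 of 560 (0.0526) or replicate 2 of 3842 (0.0576), and without landrace 3815 (0.0559), 549 (0.0701) or 572 (0.0537). LA1589 had 6.71 ± 0.31. Of the other sterol genes, the side-chain reductase gene SlSSR1 differed by 0.09 (-0.29 to 0.46) and HMGR, of the mevalonate route, by -0.17 (-0.75 to 0.42).

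AN35 encodes an annexin, a calcium-dependent membrane-binding protein. It had 5.75, 5.42 and 5.19 in 571. The other arrays had a lowest of 0.69, a median of 4.49 and a highest of 5.77, and 6 of them exceeded the lowest array of 571. The difference of 1.24 ± 0.29 (adjusted p = 0.0439), or 2.37-fold, had all 8 landraces below 571. The lowest was 572, with a mean of 1.0, and the nearest was 549, with 5.28. Without landrace 572 the difference was 0.79 (adjusted p = 0.337). In the pairs AN35 passed against 572 only. Its call was also lost without any array of 571 (0.344, 0.197 and 0.107) and without each of 10 arrays of other landraces, with adjusted p between 0.0501 and 0.0635. These were replicate 1 of 549, 572 and 3836, replicates 1 and 3 of 560, replicate 3 of 3806, and replicates 2 and 3 of 3815 and of 3842. AN35 lies on chromosome 4 (55056257 to 55059957).

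JERF1 is a transcription factor gene of the ERF family, named for its response to jasmonate and ethylene. Its signal of 9.98, 9.88 and 9.68 in 571 lay above all 24 other arrays, which had a lowest of 8.50, a median of 9.34 and a highest of 9.59. The difference was small, 0.66 ± 0.14 (adjusted p = 0.0334), or 1.58-fold, and the nearest landrace, 3842, was 0.29 below 571. JERF1 passed in 3 of the 8 pairs, against 557, 560 and 572. Under median centring its difference was 0.41 (adjusted p = 0.156). Without replicate 1, 2 or 3 of 571 the adjusted p was 0.297, 0.187 or 0.0834, and without replicate 2 or 3 of 3842 it was 0.0503 or 0.052. The gene lies on chromosome 6 (42279523 to 42281961). In the list of 30 transcription factor and signalling genes it was the 1 that rose, 0 fell and 29 did not pass, with a list median of 0.10. The heat stress factor gene TFHS1 differed by -1.02 (-1.94 to -0.10, adjusted p = 0.364) and the 14-3-3 gene tft10 by 0.11 (-0.20 to 0.43).

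AAT encodes an alcohol acyltransferase, which forms ester volatiles. It had 8.58, 9.20 and 9.50 in 571, against a lowest of 0.45, a median of 9.25 and a highest of 9.74 in the others. The difference of 0.86 ± 0.16 (adjusted p = 0.0117) came with 7 landraces above 571 and 1, 572, far below it at 0.74 ± 0.27. Without landrace 572 it changed sign to -0.21 (adjusted p = 0.796). Without replicate 2 or 3 of 571 the adjusted p was 0.0958 or 0.137. The gene is on chromosome 8 (1383748 to 1386747). Of the 15 aroma genes the other 14 did not pass, the list median was 0.00, and the abundant alcohol dehydrogenase and lipoxygenase genes ADH2 and LOXB differed by -0.01 (-0.34 to 0.31) and 0.33 (-0.12 to 0.78).

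CAT2 encodes a catalase, which breaks down hydrogen peroxide. Its signal was 3.19, 2.31 and 2.82 in 571, against a lowest of 2.97, a median of 4.45 and a highest of 6.42 in the other arrays. Of the 24 other arrays, 2 lay below the highest of 571, so the overlap was slight. CAT2 fell by 1.62 ± 0.31 on the log2 scale (adjusted p = 0.0152) and was 3.08-fold lower in 571. All 8 landraces had a higher mean, between 3.32 in 3842 and 5.72 in 549, and CAT2 passed as lower in 5 of the 8 pairs. Without replicate 2 or 3 of 571 the adjusted p was 0.163 or 0.0796. LA1589 had 5.98 ± 0.12. CAT2 lies on chromosome 2 (62619861 to 62624138). Of the 23 genes for ascorbate, tocopherol and antioxidant enzymes it was the 1 that fell and 0 rose. The superoxide dismutase genes SODCC.1 and FESOD differed by 0.31 (0.04 to 0.59, adjusted p = 0.35) and 0.05 (-0.23 to 0.33).

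GAI encodes a DELLA protein, which represses the response to gibberellin. Its mean was low in 571, at 0.94, and ran between 1.40 in 3815 and 3.43 in 560 among the other landraces. Its signal was 0.98, 0.70 and 1.15 in 571, against a lowest of 0.86, a median of 2.59 and a highest of 3.82 in the others, of which 1 array lay below the highest of 571. GAI fell by 1.53 ± 0.34 (adjusted p = 0.0358), or 2.89-fold lower in 571, with all 8 landraces above it, and it passed in 3 of the 8 pairs. Without replicate 1, 2 or 3 of 571 the adjusted p was 0.213, 0.222 or 0.107, without replicate 2 or 3 of 3842 it was 0.0503 or 0.052, and without landrace 560 or 572 it was 0.0522 or 0.0591. GAI lies on chromosome 11 (4887391 to 4889747). Of the 22 genes of abscisic acid, gibberellin, auxin and brassinosteroid it was the 1 that fell and 0 rose. The auxin-binding protein gene ERABP1 differed by 0.05 (-0.41 to 0.51) and the brassinosteroid oxidase gene CYP85A1 by 0.28 (-0.37 to 0.93).

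Of the remaining lists only that of ethylene and ripening genes held a member that passed. In the list of 59 ethylene and ripening genes, ER1 was the 1 that rose, 0 fell, and the list median was -0.13. The fruit ripening gene E8 had 8.57, 9.48 and 9.07 in 571, the highest of the 9 means, with a difference of 0.93 (0.01 to 1.86, adjusted p = 0.443). SAM1, which makes the methyl donor that ethylene derives from, differed by -0.54 (-0.89 to -0.19, adjusted p = 0.146). No member passed in 12 of the 19 lists. These hold 55 cell wall, 34 metal, transport and stress, 29 sugar and starch, 19 fruit size and cell cycle, 17 carotenoid, 16 organic acid and GABA, 12 photosynthesis, 11 ribosome and translation, 9 heat shock, 9 phenylpropanoid, 3 epidermis and 2 seed genes. List medians ran between -0.13 and 0.26, with photosynthesis at the upper end.

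Among members that did not pass, those with the highest levels show how closely 571 could be placed. The carotenoid genes Psy1 and DXS differed by 0.84 (0.31 to 1.37, adjusted p = 0.128) and 0.29 (-0.59 to 1.17). Without landrace 560 the difference of Psy1 was 0.36 (adjusted p = 0.67), and without landrace 3806 it was 0.94 and passed (adjusted p = 0.0478). The pectin genes PG2 and PE1 differed by -0.05 (-1.06 to 0.95) and 0.17 (-0.36 to 0.69). For the vacuolar invertase gene AI the arrays of 571 were 10.42, 11.09 and 8.29, and the difference was 0.88 (-0.01 to 1.76). The malate genes ME1 and mMDH1 differed by 0.34 (-0.18 to 0.87) and 0.15 (-0.21 to 0.50), and hqt, of chlorogenic acid synthesis, by -0.39 (-1.09 to 0.30). The heat shock genes HSP17-6 and HSC80 differed by 0.24 (-0.47 to 0.94) and -0.38 (-0.77 to 0.01). PSBR of photosystem II and the carbonic anhydrase gene ca1 differed by 0.47 (-0.06 to 1.0) and 0.44 (0.03 to 0.84). The histone gene H1 was lowest in 571 of the 9 landraces, at 6.71, 5.01 and 5.89, with a difference of -1.04 (-1.66 to -0.43, adjusted p = 0.104). Intervals in brackets are 95% intervals of the log2 difference and are not adjusted for the number of genes.

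**Figure D2:**
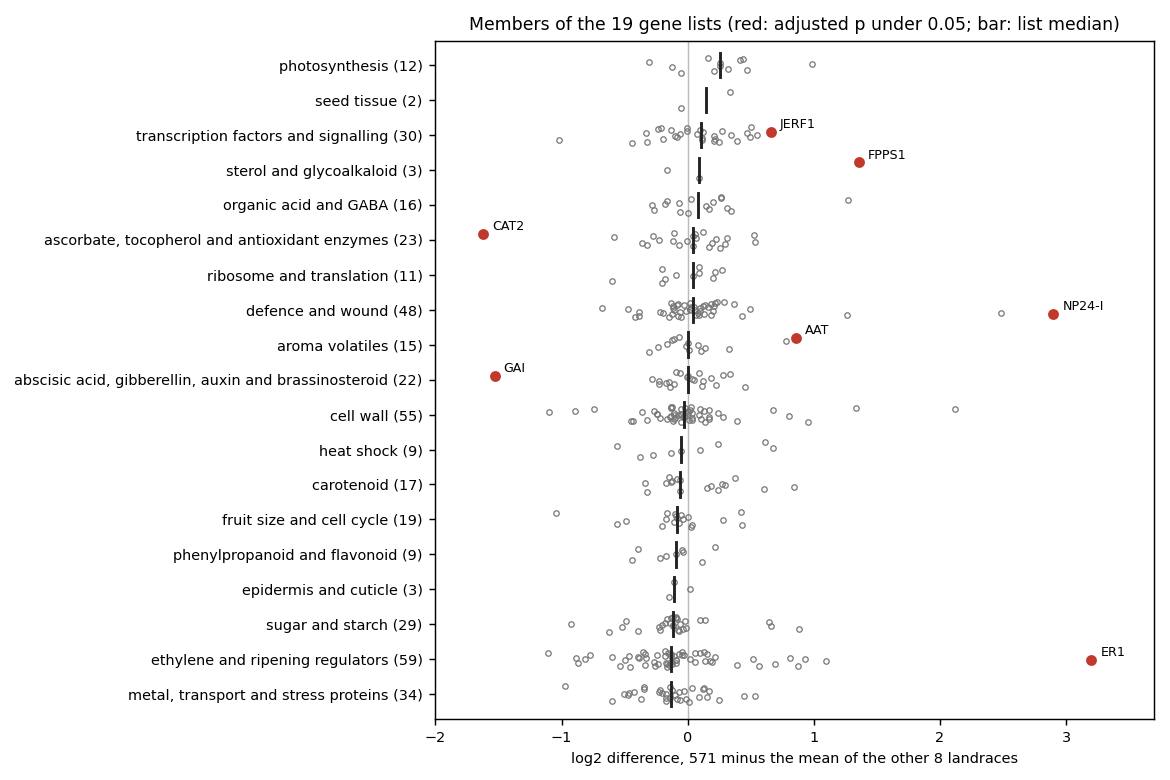
Log2 difference of 571 minus the mean of the other 8 landraces (horizontal axis) for the members of the 19 gene lists, with the number of members in brackets, filled red points for members that passed and a bar at each list median. The 7 passing list members are named, and the medians lie between -0.13 and 0.26; AN35 is in no list.

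The largest differences were in probe sets with no gene name. Les.1205.1.A1_at had 6.52, 7.26 and 7.20 in 571, and was higher by 4.89 ± 0.53 (adjusted p = 4.93e-05). It was as high in 557, with 6.07, 7.24 and 7.24, mixed in 3806, whose last pair of arrays had 5.91 and 3.21, and at or under 2.79 in every array of the other 6 landraces. It passed against 7 of the 8 landraces, and the difference to 557 was 0.14. Les.1205.3.S1_at had 5.58, 5.40 and 5.47 in 571, above all 24 other arrays, and was higher by 3.84 ± 0.49 (adjusted p = 0.000389). Its highest landrace among the others was also 557, with 1.57, 5.07 and 4.18. Another probe set with the same ID stem was higher by 3.15 ± 0.41 (adjusted p = 0.000485) and passed in the same number of pairs, 7. IDs that share a stem may read the same transcript, so these are not independent. Both named IDs kept their call without each single array and each landrace. With the spiked controls as a covariate the first also kept it, and the second had an adjusted p of 0.0989.

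Of the unnamed probe sets that fell, Les.2033.1.A1_at had 2.03, 1.44 and 3.52 in 571 against a median of 4.39 in the others. It fell by 2.09 ± 0.43 (adjusted p = 0.0227), which was lost without replicate 1 or 2 of 571 (0.22 and 0.239) and without landrace 572 (0.0679). Les.4930.1.A1_at had 4.61, 5.08 and 5.78 in 571 against a median of 6.93 and fell by 1.86 ± 0.33 (adjusted p = 0.00781). Without replicate 1 or 2 of 571 its adjusted p was 0.139 or 0.0633. Its difference with the covariate was -0.36 (adjusted p = 0.906).

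**Figure D3:**
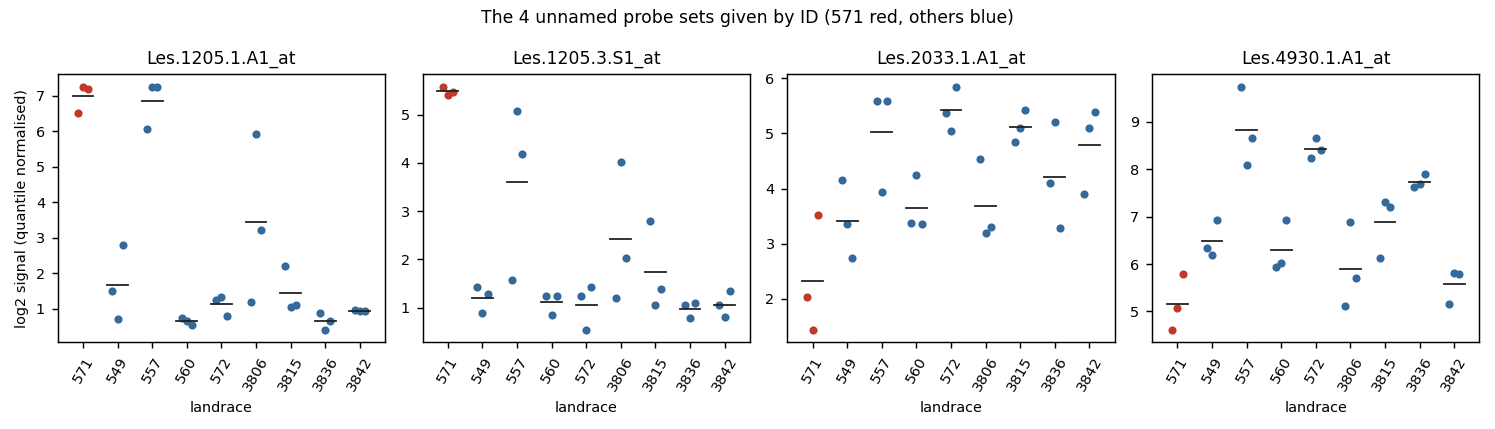
Log2 signal (vertical axis) of the 4 unnamed probe sets given by ID, with 1 point per array, 571 in red at the left, the other landraces in blue, and a bar at each landrace mean. Les.1205.1.A1_at is near 7 in both 571 and 557 and varies among the 3 arrays of 3806.

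The second question is how far 571 stands from each landrace. Against the mean of its other 8, each landrace gave its own count of called probe sets. It was 75 for 571, against 2347 for 557, 2270 for 560, 1402 for 572, 833 for 3815, 578 for 3806, 381 for 3836, 151 for 549 and 16 for 3842. Thus 7 landraces had more calls than 571 and 1 had fewer. The order moved with the settings. With the values as deposited 571 gave 156 calls and 549 gave 136. With array weights 571 gave 694, against 295 for 557 and 3255 for 3806. Set against each landrace alone, 571 gave 9 calls against 3842 (0.0897%), 29 against 3806 (0.289%) and 38 against 549 (0.379%). It gave 290 against 3836 (2.89%), 501 against 3815 (4.99%), 774 against 560 (7.71%), 1213 against 572 (12.1%) and 1457 against 557 (14.5%). The pairs share the arrays of 571. The count was lowest for 3842 in each scaling, filter and variance model tried except with the spiked controls as a covariate, where 3836 gave 4, 3806 gave 9, 557 gave 11 and 3842 gave 13. With that covariate 549 gave 61, 572 gave 72, 3815 gave 73 and 560 gave 891, so that 557, with the most calls otherwise, was among the pairs with the fewest. With array weights 557 gave 505, below 3815 (1799), 560 (1734), 3806 (1662), 572 (1487) and 3836 (962).

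**Figure D4:**
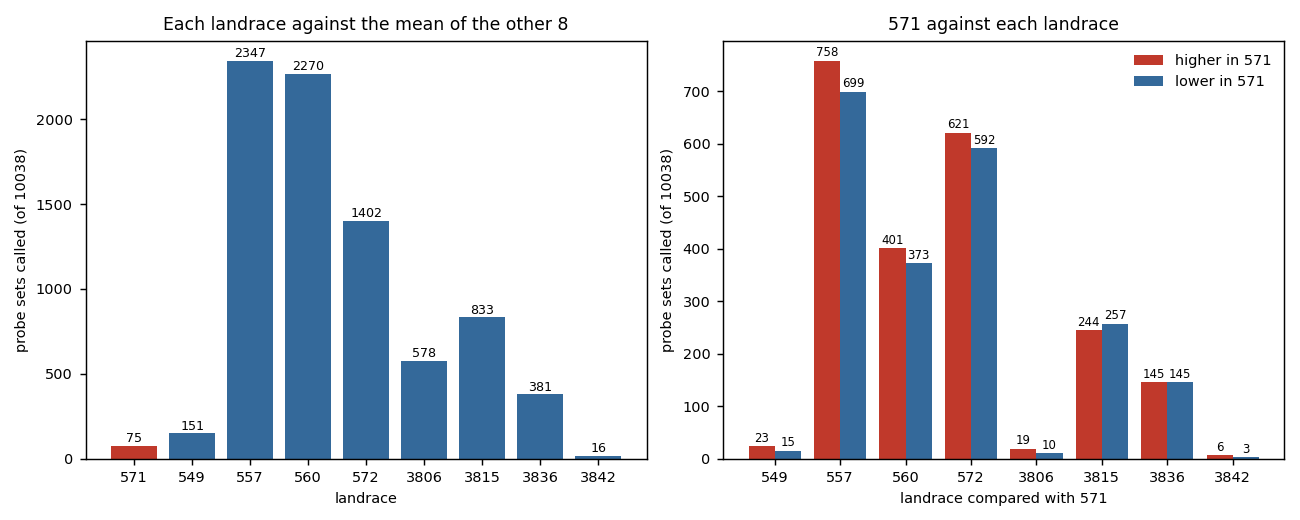
Probe sets called at an adjusted p under 0.05, of 10038. Left, each landrace against the mean of the other 8, with 571 in red; right, 571 against each landrace, with red bars for probe sets higher and blue bars for those lower in 571. The count of 571 against the others is 75, and its pairs lie between 9 with 3842 and 1457 with 557.

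None of the 661 described genes passed between 571 and 3842, or between 571 and 3806. The 9 probe sets called against 3842 were all unnamed, and 3 of them share the stem of Les.1205. A single unnamed probe set was higher in 571 in all 8 pairs. In the other pairs 8 described genes passed against 549, 15 against 3836, 48 against 3815, 65 against 560, 82 against 572 and 90 against 557. The genes named for the pairs were chosen after their values were seen. Of the calls in described genes, those kept without each single array were 2 of 8 against 549, 1 of 15 against 3836, 8 of 48 against 3815, 20 of 65 against 560, 42 of 82 against 572 and 28 of 90 against 557. With the spiked controls as a covariate 8, 0, 7, 43, 4 and 0 were kept in the same order of pairs. The means of these controls differed least from 571 in 3842, 3806, 560 (7.81) and 549 (7.91), and most in 572 (9.64) and 557.

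Against 549, 4 described genes were higher and 4 were lower in 571, and 2 calls held without each single array. NP24-I had 8.46, 9.52 and 10.16 in 571 against 5.16, 5.18 and 2.33 in 549, a difference of 5.16 ± 0.72 (adjusted p = 0.00088). CAT2 had 3.19, 2.31 and 2.82 in 571 against 6.42, 4.44 and 6.30 in 549, a difference of -2.95 ± 0.42 (adjusted p = 0.00088). ER1, FPPS1 and SIP were the other higher genes, by 4.58, 2.31 and 2.55. The other lower ones were AG1, a MADS-box gene of floral organs that is also expressed in fruit (-2.27), the fatty acid desaturase gene Fad7 (-2.11) and CIP1 (-1.72). For AG1 the arrays of 571 were 4.64, 5.0 and 5.35 and those of 549 were 7.46, 7.31 and 7.03, with no overlap. Each of these 6 was lost without at least 1 array, with adjusted p up to 0.111 for ER1, 0.0691 for FPPS1, 0.0562 for SIP, 0.0821 for AG1, 0.295 for Fad7 and 0.0889 for CIP1. These arrays were replicate 3 of 571 for SIP, replicates 1 and 3 of 571 for FPPS1 and CIP1, and replicate 1 of each landrace for AG1. For ER1 they were replicates 2 and 3 of 549 and replicate 3 of 571, and for Fad7 all arrays of 549, replicates 1 and 3 of 571 and replicate 2 of 3842. With LA1589 added to the fit SIP, CIP1 and Fad7 did not pass either.

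Against 560, 48 described genes were higher and 17 were lower in 571. Over all probe sets the split was nearly even, with 401 higher and 373 lower. Phytoene synthase Psy1, which commits isoprenoids to carotenoids, had 9.54, 9.72 and 9.38 in 571 against 5.51, 5.04 and 5.53 in 560, a difference of 4.19 ± 0.34 (adjusted p = 2.98e-07). Of the 59 ethylene and ripening genes 8 were higher and 2 lower, or 16.9% of the list, against 7.71% of all probe sets. ER24 and ER21, both isolated as ethylene-responsive transcripts, were higher by 3.03 ± 0.67 and 2.30 ± 0.38 (adjusted p = 0.00748 and 0.000757). Of the 9 heat shock genes 3 were higher and 0 lower, or 33.3% of a short list. MTSHP, a mitochondrial small heat shock protein gene, had 7.12, 7.96 and 7.01 in 571 against 3.46, 4.60 and 3.24 in 560, and Hsp90-1 was higher by 1.81 ± 0.39 (adjusted p = 0.00606). The fruit lipoxygenase gene LOXB and the sucrose phosphate synthase gene SPS were higher by 1.45 ± 0.29 and 1.18 ± 0.24 (adjusted p = 0.00349 and 0.00486). NP24-I was higher by 3.46, and GAI and CAT2 differed by -2.49 and -2.19. GAI had 0.98, 0.70 and 1.15 in 571 and 3.77, 3.11 and 3.40 in 560, and the groups did not overlap. Each gene with a value in this paragraph kept its call without each single array and with the spiked controls as a covariate. The list shares also count calls that did not hold. Those of ER1, ERF2, DDTFR8, TDR4, ACS2, ACS6 and HSP17.4 were each lost without at least 1 array. DDTFR8, TDR4 and ACS2 also did not pass with the covariate.

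In the pairs with 3815 and 3836 the share of cell wall genes called was 10.9% and 3.64% of the 55, against 4.99% and 2.89% of all probe sets. There were 3 higher and 3 lower against 3815, and 2 higher and 0 lower against 3836, where the share was thus near that of all probe sets. Man4, a mannanase gene, had 4.25, 7.25 and 5.71 in 571, against 1.49, -0.08 and 0.19 in 3815 and 1.68, 1.31 and 0.96 in 3836. It was at least 29.6-fold higher than in 3815, where 2 arrays did not exceed background (adjusted p = 0.0036), and it was higher than in 3836 by 4.42 ± 0.99 (adjusted p = 0.019). The pectin methylesterase gene PME2.1 was higher than in 3815 by 3.28 ± 0.53 (adjusted p = 0.000828), at 5.60, 6.72 and 6.41 in 571 against 4.61, 2.33 and 1.93 in 3815. The invertase inhibitor gene CIF1 was higher than in 3815 by 1.98 ± 0.31 (adjusted p = 0.000743) and was the 1 of these that also passed with the spiked controls as a covariate. NP24-I led the pair with 3836, at 4.44 ± 0.72 (adjusted p = 0.00286). Man4 against 3836 was lost without replicate 2 or 3 of either landrace, with adjusted p up to 0.103. The other calls with a value in this paragraph held without each single array. The cell wall calls not given by value (TBG3 in both pairs, and TBG7, LEXYL2 and Cel3 against 3815) were each lost without at least 1 array of 571 or of the landrace compared. Other lists had larger shares called against 3815. Of the 12 photosynthesis genes 3 were higher (PSBO, psaD and PSBR) and 0 lower, or 25%. Of the 11 ribosome and translation genes 0 were higher and 2 lower (eIF-5A1 and RPL3), or 18.2%. The calls of PSBO, PSBR, eIF-5A1 and RPL3 were each lost without at least 1 array, and also with the spiked controls as a covariate.

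The pairs with 572 and 557 had the most calls as reported, but not with array weights or with the spiked controls as a covariate. These landraces had the highest means of the spiked controls. AAT was at least 268-fold higher in 571 than in 572, where 2 arrays lay at background (adjusted p = 9.36e-18). It was the 1 gene named here for these pairs that passed with the spiked controls as a covariate. The small heat shock gene vis1 had 7.60, 9.12 and 8.38 in 571 against 3.53, 2.82 and 5.98 in 572, and differed by 4.26 ± 0.63 (adjusted p = 0.000133). The ACC oxidase gene ACO5, of the last step of ethylene synthesis, had 1.65, 1.23 and 0.94 in 571 against 7.69, 3.97 and 5.54 in 572, and differed by -4.46 ± 0.97 (adjusted p = 0.00402). Against 557, ER24 and MTSHP were higher by 3.47 ± 0.67 and 3.25 ± 0.75 (adjusted p = 0.00184 and 0.00645). The ACC synthase gene ACS2, the EIN3-like gene EIL4 and hqt differed by -3.46 ± 0.84, -2.07 ± 0.33 and -2.14 ± 0.45 (adjusted p = 0.00869, 0.00037 and 0.00331). Their adjusted p with the covariate ran between 0.138 for ER24 and 0.554 for hqt against 557. It was 0.244 for vis1 and 0.631 for ACO5 against 572. The differences themselves kept their sign. With the covariate they were 4.88 for ER24, 5.17 for MTSHP, -4.20 for ACS2, -2.05 for EIL4 and -1.48 for hqt against 557. Against 572 they were 3.45 for vis1 and -2.89 for ACO5. ACS2 and hqt also did not pass with array weights. Of the 59 ethylene and ripening genes 6 were higher and 7 lower against 557, or 22.03% of the list against 14.5% of all probe sets. Against 572, 4 were higher and 4 lower, or 13.6% of the list, which is near the 12.1% of all probe sets. Of the 9 heat shock genes 3 were higher and 0 lower against 557 (33.3%, as against 560), and 1 higher and 0 lower against 572 (11.1%). Of the 23 genes for ascorbate, tocopherol and antioxidant enzymes 3 were higher and 3 lower against 572 (26.1%), and 3 higher and 0 lower against 557 (13.0%). None of these heat shock and antioxidant calls passed with the spiked controls as a covariate.

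**Figure D5:**
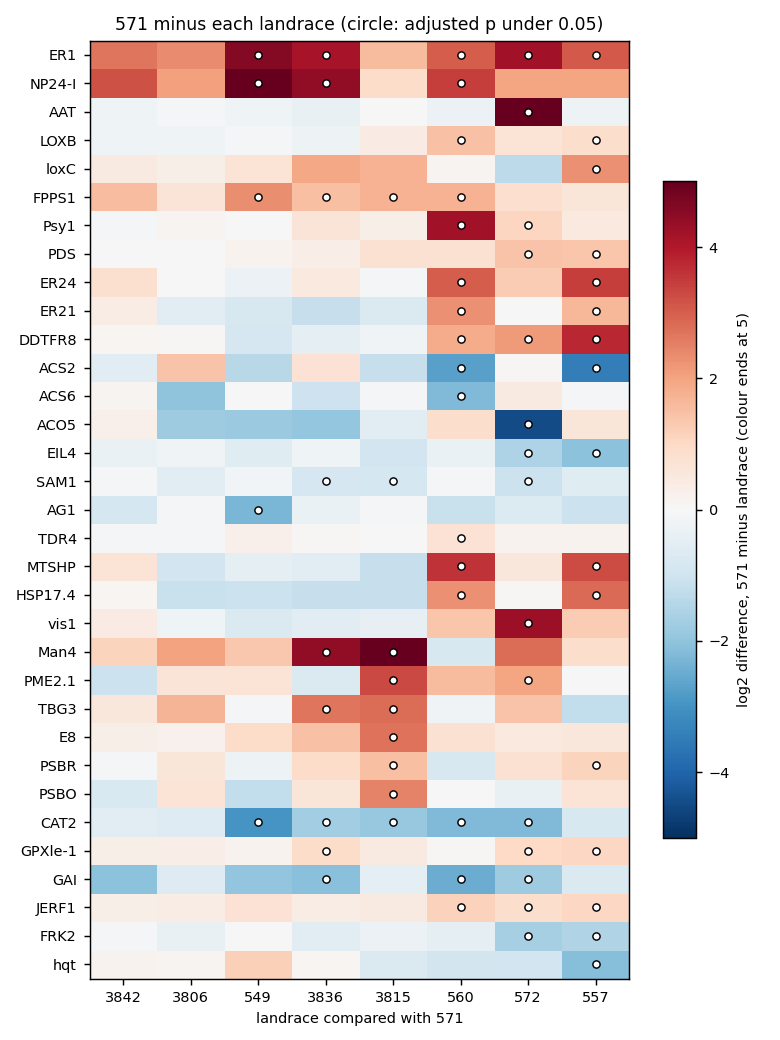
Log2 difference of 571 minus each landrace (colour, ending at 5) for 33 genes chosen after their values were seen, with landraces ordered by the number of called probe sets and a circle where the adjusted p is under 0.05. The columns of 3842 and 3806 hold no circle, and AAT differs by 8.35 in 572.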

How the data were processed

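The authors deposited 1 table of the 30 arrays, with 1 value per probe set and array, taken here as log2 signals; how the authors corrected background, summarised probes and normalised them is not given in the sources used here. Base 2 was taken because the highest value (12.55) exceeds the natural log of the largest 16-bit signal (11.09). Deposited array medians of tested probe sets differed by 0.51, above the limit of 0.5 set for this case, so all values were quantile normalised between the 30 arrays. Array background was the percentile 95 of 63 foreign reporter probe sets (0.37 to 2.41). Arrays give no counts, so their number limits the precision.

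The platform annotation of 2007 named 909 probe sets for 803 genes, of which 885 matched the gene table of SLM_r2.1 by identifier. Of these, 661 genes had a described symbol. Of several probe sets of a gene, the brightest over the 30 arrays was read.

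Tests used limma 3.58.1 in R 4.3.3, two-sided, with 1 mean per landrace, 27 arrays and 18 residual degrees of freedom, and Benjamini-Hochberg adjustment over 10038 probe sets. Each of the 8 pairs was adjusted on its own. A fold is given as a bound where the lower side lay at background in 2 of 3 arrays (a landrace) or in 2 or more landraces (the other 8). The named genes were the 12 highest and 12 lowest described genes past the threshold, up to 3 passing members and the 2 brightest others of each of 19 lists, and 2 unnamed probe sets each way. The comparison, lists and rules were chosen with earlier results of these data known. Tables used Python 3.11.15, numpy 2.4.6 and pandas 2.3.3, and figures matplotlib 3.10.9. The code of the fit was also run on simulated data with independent normal noise. These lack shifts shared by the probe sets of an array, so they do not test the calls made here. Alternatives were no scaling, median centring, leaving out 2510 dim or 257 cross-hybridising probe sets, limma's trend and robust options, array weights (with statmod 1.5.0), a replicate block, the spiked controls (14 probe sets) as a covariate, 1 mean per landrace, LA1589 added, and each array or landrace left out.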

Additional observations from a re-analysis of the deposited data

How the results depend on the processing

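The count of 75 probe sets called between 571 and the other 8 landraces was 156 with the values as deposited, 98 with median centring, 87 without the dimmest probe sets, 67 with an intensity trend and robust prior, 73 without cross-hybridising probe sets, 694 with array weights, 148 with LA1589 added to the comparison group, 5 with the spiked controls as a covariate and 0 with 1 mean per landrace. The share of higher calls was 54.7% as reported, 82.7% as deposited and 32.7% with median centring, which moved the median difference of all probe sets to -0.16. Leaving out each array gave 19 to 115 calls. Leaving out a landrace gave 41 to 139, with 134 without 3806, 139 without 560 and 41 without 572. The test against each of the 8 landraces gave 0 to 2 calls with each array left out, with 2 without replicate 1 of 571, and 2 without landrace 557. The replicate block gave 58 calls. The labels give each landrace the same replicate numbers but tie them to no plot, and same-numbered arrays of 571 and the others did not deviate together (correlations of -0.25 to 0.20, over 0.1 in 4 of 24 pairs), so the block is only an alternative. Between 571 and 3842 the count of 9 was 19 with median centring and 231 with array weights. The sign changed for a called gene only for AAT, at -0.21 without landrace 572. Of the counts of called list members, 788 stayed within 1.5 times their value and 67 did not. Each list had 0 or 1 called member as reported, and a 0 that stayed 0 was counted as unchanged. The 788 are thus no measure of stability. Pairs of list members gave 188 calls, of which 59 held without each single array, 38 held with the spiked controls as a covariate and 15 changed sign under at least 1 alternative. The 3 arrays per landrace, and low signals such as that of GAI in 571, limit these results.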
